A study of Mus musculus with 20 samples.

Results

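In all, 8 marker genes of the hippocampal subfields were followed in 20 male mice, and are described here by mouse and by group. Prox1, Dsp, C1ql2, Tdo2 and Trpc6 stood for the dentate gyrus, Wfs1 and Fibcd1 for CA1, and Bok for CA3. The rule took every probe set, the set of short probes that reports 1 transcript, annotated to exactly 1 of these symbols, which gave 14 probe sets for the 8 genes out of 45037 on the array. For each gene the probe set with the highest mean over the 20 arrays was used.

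The arrays were hybridised with RNA of the dissected hippocampus, 1 mouse to an array, with 4 mice in each of 5 groups. WT_Y were wild-type C57BL/6J mice of 6 months, and WT_AU and WT_AI were wild-type mice of 24 months whose memory in the Y-maze, a maze test of spatial memory, was unimpaired or impaired. KO_Y (6 months) and KO_A (24 months) were homozygous for a targeted disruption of Hsd11b1, the gene of the glucocorticoid-regenerating enzyme 11β-HSD1, on a congenic C57BL/6J background. All mice of all groups had gone through Y-maze testing before they were culled. WT_A joins WT_AU and WT_AI. The normalised intensity of Hsd11b1 was 549.6 to 804.2 in wild-type and 39.5 to 65.2 in Hsd11b1-/- mice, so every array matched its genotype label.

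The hippocampus is built from a chain of fields. Granule cells of the dentate gyrus send mossy fibres to the pyramidal cells of CA3, which project to those of CA1, and each field keeps its own set of transcripts through adult life. A marker of 1 field in RNA of the whole structure therefore follows how much of that field was in the tube as well as how much mRNA its cells held. In these bulk samples, fewer cells of a type and less RNA per cell cannot be told apart, and neither can an uneven dissection.

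Among the members, Prox1 encodes a homeobox transcription factor that granule cells need for their identity. Dsp encodes desmoplakin, a plaque protein of desmosomes, C1ql2 a secreted C1q-like protein of mossy fibre synapses, Tdo2 tryptophan 2,3-dioxygenase, which opens the kynurenine pathway, and Trpc6 a cation channel gated by diacylglycerol. Wfs1 encodes wolframin, a membrane protein of the endoplasmic reticulum, Fibcd1 a receptor with a fibrinogen-like domain, and Bok a member of the Bcl-2 family. Of the 8 genes, 7 passed the filter on dim signals, 100 or more on 2 or more of the 20 arrays. Trpc6 did not, with 0 arrays at 100 or above and a maximum of 81.4, and its tests come from a fit over all probe sets. Tdo2 reached 100 in 6 arrays.

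The promoters of the 3 dentate gyrus genes that varied most closely together between mice, Dsp, C1ql2 and Prox1, are shown beside that of Wfs1, which varied the other way. Each is the 100 bases before the RefSeq start of the gene on GRCm38.p6 (for Prox1, the more upstream of 2 starts), written 5′ to 3′ along the gene. Capitals mark the GC box, GGGCGG, searched on both strands, so that CCGCCC is the same motif on the other strand.
Dsp, chr13:38151194-38151293, plus strand: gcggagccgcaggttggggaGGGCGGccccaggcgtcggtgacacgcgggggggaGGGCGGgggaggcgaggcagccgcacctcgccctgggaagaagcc
C1ql2, chr1:120340482-120340581, plus strand: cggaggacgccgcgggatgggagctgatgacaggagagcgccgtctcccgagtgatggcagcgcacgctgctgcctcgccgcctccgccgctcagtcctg
Prox1, chr1:190170828-190170927, minus strand: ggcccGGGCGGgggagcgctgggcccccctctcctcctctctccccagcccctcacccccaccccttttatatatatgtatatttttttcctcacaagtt
Wfs1, chr5:36988983-36989082, minus strand: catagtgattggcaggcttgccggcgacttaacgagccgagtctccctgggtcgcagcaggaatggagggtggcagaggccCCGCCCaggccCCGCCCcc
The GC box occurred in 24.68% of 32851 windows of this length. Dsp held 2, Prox1 1, Wfs1 2 and C1ql2 none, and the GC content was 79% for Dsp, 72% for C1ql2, 59% for Prox1 and 69% for Wfs1. The E-box CANNTG, searched likewise, was in 34.45% of all windows and in 0 of the 4 shown. The TATA core TATAAA, also searched on both strands, was in 5.56% of all windows. Among the 4 shown it was in that of Prox1 only, where it is not in capitals. No motif searched set the 3 dentate gyrus windows apart from that of Wfs1, and a match or its absence describes the letters only. Prox1 lies at chr1:190118035-190170827, 3.05 Mb from Hsd11b1 on the same chromosome, whereas C1ql2 and Bok, also on chromosome 1, lie 72.9 and 99.5 Mb from it.

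Between mice, the dentate gyrus genes were among the more variable transcripts of the tissue, with the widest spread in WT_Y. The SD between mice of 1 group, pooled over the 5 groups on the log2 scale, was 0.57 for Dsp, 0.42 for Prox1, 0.32 for C1ql2, 0.27 for Tdo2 and 0.24 for Trpc6, against a median of 0.12 over the 16995 probe sets that passed the filter. Dsp stood at the 99.3rd percentile of that spread. Tdo2 stood at the 95.3rd and Trpc6 at the 93.7th. The pooled SD was 0.27 for Fibcd1, 0.18 for Wfs1 and 0.18 for Bok, at the 95.4th, 85.2nd and 82.6th percentiles. A wide spread was thus not particular to the dentate gyrus genes. For Dsp, Prox1 and C1ql2 the lowest of all mice was WT_Y-374, which raised the SD of its group. The SD of Dsp was 1.14 in WT_Y and 0.14 to 0.36 in the other groups. That of Prox1 was 0.79 and 0.05 to 0.36, and that of C1ql2 0.52 and 0.10 to 0.37. The percentiles without WT_Y-374 were not computed.

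Dsp had the widest range of the members, 5.84-fold between its highest and its lowest mouse. Its log2 values were 8.83, 8.35, 9.13 and 6.58 in WT_Y and 8.96, 8.11, 8.62 and 8.41 in KO_Y. In the aged groups they were 8.03, 8.76, 8.42 and 8.03 in WT_AU, 8.34, 8.13, 8.26 and 8.46 in WT_AI, and 8.11, 8.08, 7.66 and 8.30 in KO_A. All groups overlapped, and the low value of WT_Y belonged to 1 mouse, WT_Y-374. A second probe set of Dsp followed the first over the 20 arrays (r = 0.988). The remaining probe set, with a mean intensity of only 10.8, did not (r = 0.13).

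C1ql2 ran from 7.81 to 9.42. The values were 8.82, 8.76, 8.95 and 7.81 in WT_Y and 9.13, 8.42, 8.98 and 9.26 in KO_Y. They were 8.82, 9.42, 9.07 and 8.91 in WT_AU, 9.04, 8.87, 8.78 and 8.91 in WT_AI, and 8.98, 8.90, 8.79 and 9.0 in KO_A. WT_Y-374 was again the lowest of all mice, KO_Y-578 was second lowest, and WT_AU-23 was the highest. For Prox1 the values were 7.46, 7.0, 7.81 and 5.98 in WT_Y and 7.83, 7.14, 7.15 and 7.43 in KO_Y. They were 6.96, 7.58, 7.24 and 6.75 in WT_AU, 7.15, 7.19, 7.08 and 7.09 in WT_AI, and 7.15, 7.17, 7.14 and 6.78 in KO_A. The 4 WT_AI mice lay between 7.08 and 7.19, whereas WT_Y held the lowest mouse of all and a mouse within reach of the highest.

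Tdo2 was ordered differently from the other dentate gyrus genes. Its values were 7.31, 6.66, 6.84 and 6.56 in WT_Y and 6.63, 6.16, 6.74 and 6.73 in KO_Y. They were 6.19, 6.55, 6.40 and 6.10 in WT_AU, 6.50, 6.04, 6.45 and 6.68 in WT_AI, and 6.04, 6.21, 6.18 and 6.60 in KO_A. WT_Y had the highest mean and KO_A the lowest, with overlap between neighbouring groups, and WT_Y-374 was not the lowest mouse. Trpc6 ranged from 5.24 (WT_Y-374) to 6.35 (KO_Y-575), and its group means from 5.85 in WT_Y to 6.19 in KO_Y.

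The CA1 genes did not share a pattern. Wfs1 was 9.20, 9.44, 9.36 and 9.52 in WT_Y and 9.61, 9.86, 9.59 and 9.61 in KO_Y. It was 9.50, 9.03, 9.48 and 9.70 in WT_AU, 9.25, 9.60, 9.53 and 9.54 in WT_AI, and 9.16, 9.55, 9.47 and 9.47 in KO_A. All 4 KO_Y mice were above all 4 WT_Y and all 4 KO_A mice, and WT_AU-23, the mouse highest for C1ql2, was the lowest. Fibcd1 was 8.40, 8.61, 8.54 and 7.69 in WT_Y, and between 7.91 and 8.62 in every mouse of the other groups. Its group means lay within 0.11 of each other. Bok, the CA3 gene, was 9.36, 9.47, 9.34 and 8.92 in WT_Y and between 8.94 and 9.48 in the other mice, and its group means spanned 0.15.

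**Figure D1:**
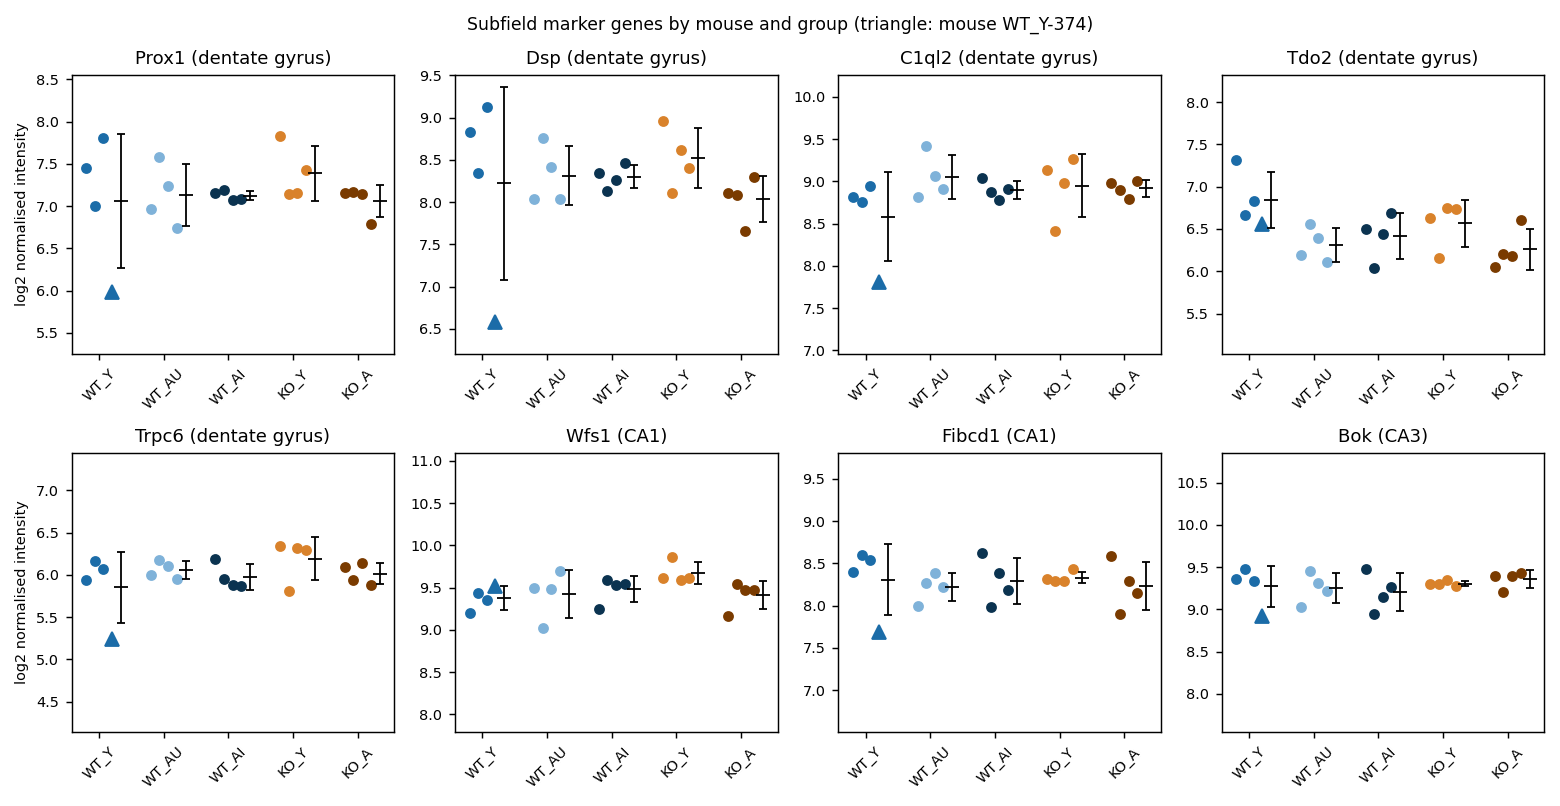
Log2 normalised intensity (y axis) of the 8 marker genes in the 5 groups (x axis), 1 point for each mouse, with the group mean and SD in black; every panel spans the same number of log2 units. Mouse WT_Y-374 (triangle) is the lowest point for 6 of the 8 genes, and the 4 KO_Y mice lie above the WT_Y and KO_A mice for Wfs1.

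WT_Y-374 stood apart. It was the lowest of 20 mice for Dsp, Prox1, C1ql2, Trpc6, Fibcd1 and Bok, 12th from the lowest for Tdo2 and 11th for Wfs1. Against the mean of the other WT_Y mice it was 4.55-fold lower for Dsp, 2.71-fold for Prox1, 2.05-fold for C1ql2, 1.76-fold for Trpc6, 1.76-fold for Fibcd1 and 1.39-fold for Bok, and 0.18 higher on the log2 scale for Wfs1. Tdo2 was 0.38 lower on that scale. The shortfall was thus deepest in 3 dentate gyrus genes, was small in another and was also seen in a CA1 and the CA3 gene.

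The same mouse was low for many, but not all, other genes of the dentate gyrus and CA1. Of 12 other dentate gyrus genes that passed the filter, WT_Y-374 was the lowest mouse for 9, as it was for 4 of 7 other CA1 genes, 2 of 8 other CA3 genes and 1 of 8 pan-neuronal genes. It was the lowest mouse for 19.9% of all 16995 probe sets. For the 7 choroid plexus genes it was the highest mouse in 6, with a summed intensity over the 8 listed genes of 24751, where the range was 8941 to 24819 in WT_Y, 4404 to 21489 in WT_AU, 4299 to 22669 in WT_AI, 1363 to 21951 in KO_Y and 6902 to 22535 in KO_A. None of these genes was at 0 in any mouse. All 5 neocortex genes that passed were above their mean in it. A raised neocortex level was not particular to WT_Y-374, as the mean log2 deviation over all listed neocortex genes was 0.39 in it and 0.41 in KO_A-42. The part of the choroid plexus or neocortex in the values of WT_Y-374 was not tested.

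**Figure D2:**
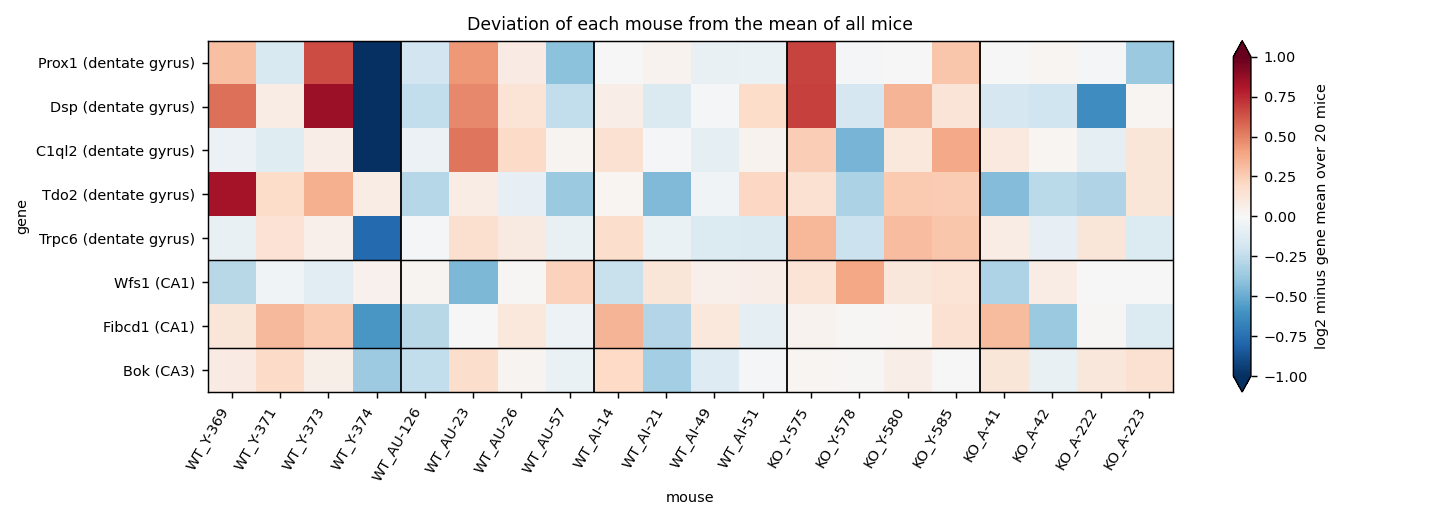
Deviation of each mouse (columns, in group order) from the mean of the gene over 20 mice, on the log2 scale, for the 8 markers (rows); red is above and blue below the mean, and colours saturate at 1. The column of WT_Y-374 is blue for every gene except Tdo2 and Wfs1.

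The mean deviation over the 5 dentate gyrus genes, a level relative to the mean of all mice on the log2 scale, ran from -0.93 in WT_Y-374 to 0.42 in KO_Y-575. Within WT_Y it was 0.31, 0.02, 0.40 and -0.93, and within KO_Y 0.42, -0.23, 0.20 and 0.26. Among aged mice it was -0.21 to 0.34 in WT_AU, -0.13 to 0.08 in WT_AI and -0.18 to -0.05 in KO_A. The wide range of WT_Y rested on WT_Y-374, as the other WT_Y mice ran from 0.02 to 0.40, no wider than WT_AU. All 4 KO_A mice were below the mean, and 3 of 4 KO_Y mice were above it. The difference between the dentate gyrus and the CA1 mean ran from -0.66 in WT_Y-374 and -0.44 in KO_Y-578 to 0.56 in WT_AU-23, and the group ranges of this difference overlapped.

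**Figure D3:**
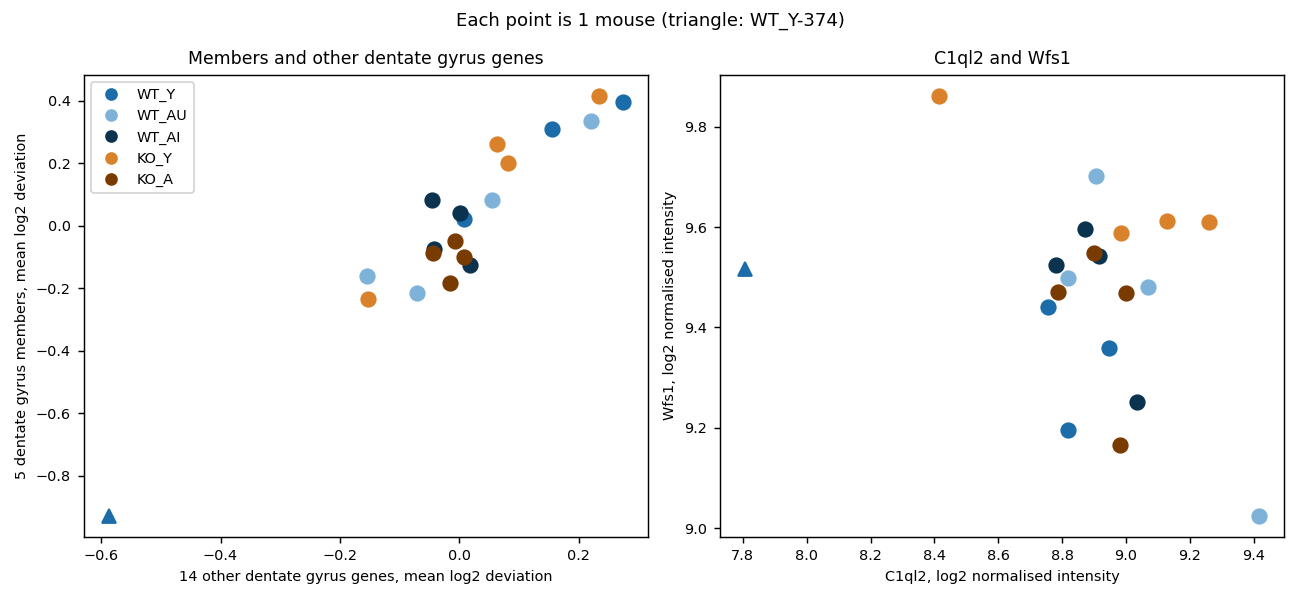
Left, the mean deviation of the 5 dentate gyrus members against that of 14 other dentate gyrus genes (both log2), and right, Wfs1 against C1ql2 (log2 normalised intensity); each point is 1 mouse and colours give the group. On the left WT_Y-374 lies far below the rest at -0.93. On the right, where group means are not subtracted, WT_AU-23 is highest for C1ql2 and lowest for Wfs1. KO_Y-585 and KO_Y-575, also high for C1ql2 at 9.26 and 9.13, are not low for Wfs1, both at 9.61.

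Whether markers of 1 subfield varied together between mice of the same group was asked by correlating them after the group means were subtracted, over 20 mice and 28 pairs, with 100000 two-sided permutations within groups. Of the 10 pairs of dentate gyrus genes 7 passed an adjusted p of 0.05, with r from 0.37 to 0.88 and a median of 0.75. So did 7 of 10 pairs of a dentate gyrus with a CA1 gene, with r from -0.62 to 0.74. Of the pairs with the CA3 gene, 3 of 5 did, with r from 0.50 to 0.68. The share called was thus no higher within the dentate gyrus than for its pairs with CA1 genes. The share among pairs of other genes was not computed. For Dsp and C1ql2, r was 0.88 and rho 0.83 (permutation p = 0.0005 and 0.00069, adjusted p = 0.0117 and 0.00966). For Prox1 and Dsp, r was 0.88 and rho 0.61 (permutation p = 0.00278 and 0.0215, adjusted p = 0.0117 and 0.0304). The pair of Dsp and Trpc6 lay at the threshold (r = 0.75, rho = 0.46, permutation p = 0.0382 and 0.0756, adjusted p = 0.0509 and 0.0962), so that the count can move by 1 with the permutations drawn. Both of the pairs of Tdo2 with Prox1 and Trpc6 had an r under 0.39, the lowest within the dentate gyrus.

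Wfs1 was negatively correlated with all 7 other members, with r from -0.62 (C1ql2) to -0.48 (Dsp). With C1ql2, rho was -0.77 (permutation p = 0.00147 for r and 0.00044 for rho, adjusted p = 0.0117 and 0.00966). Its relation with Fibcd1, the other CA1 gene, was also negative, with r of -0.50 and rho of -0.64 (permutation p = 0.0262 and 0.00526, adjusted p = 0.0386 and 0.021). Fibcd1 instead had its highest r with Bok, the CA3 gene, with r of 0.83 and rho of 0.61 (permutation p = 0.00101 and 0.0217, adjusted p = 0.0117 and 0.0304). It also varied with dentate gyrus genes, at r of 0.74 for Trpc6 and 0.63 for C1ql2 (permutation p = 0.00292 and 0.0145, adjusted p = 0.0117 and 0.029). Without WT_Y-374 these were 0.48 and 0.27. Between these mice Wfs1 and Fibcd1, both listed for CA1, thus did not rise and fall together (r = -0.48 without WT_Y-374). How each varied with other CA1 genes is given below.

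The number of pairs called depended on WT_Y-374. In all, 20 of 28 pairs passed the adjusted threshold by r and 21 by rho, but without this mouse 0 did, with a smallest adjusted permutation p of 0.0643 and 16 pairs at an unadjusted p under 0.05. The direction of the named pairs held. Pairs of Wfs1 were no longer called although r was about as large, from -0.68 (C1ql2) to -0.48 (Fibcd1 and Tdo2). Without WT_Y-374, r was 0.72 for Dsp and C1ql2, 0.69 for Prox1 and Dsp, -0.68 for C1ql2 and Wfs1, -0.57 for Dsp and Wfs1, and 0.72 for Fibcd1 and Bok. When the pair of mice farthest from the median of the first gene was left out, r was 0.76 for Dsp and C1ql2, 0.65 for Prox1 and Dsp, -0.63 for C1ql2 and Wfs1, -0.49 for Wfs1 and Fibcd1 and 0.72 for Fibcd1 and Bok. By contrast, r between Dsp and Fibcd1 went from 0.61 to 0.07 without WT_Y-374, and that between Prox1 and Bok from 0.50 to 0.08, so that these relations rested on it.

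**Figure D4:**
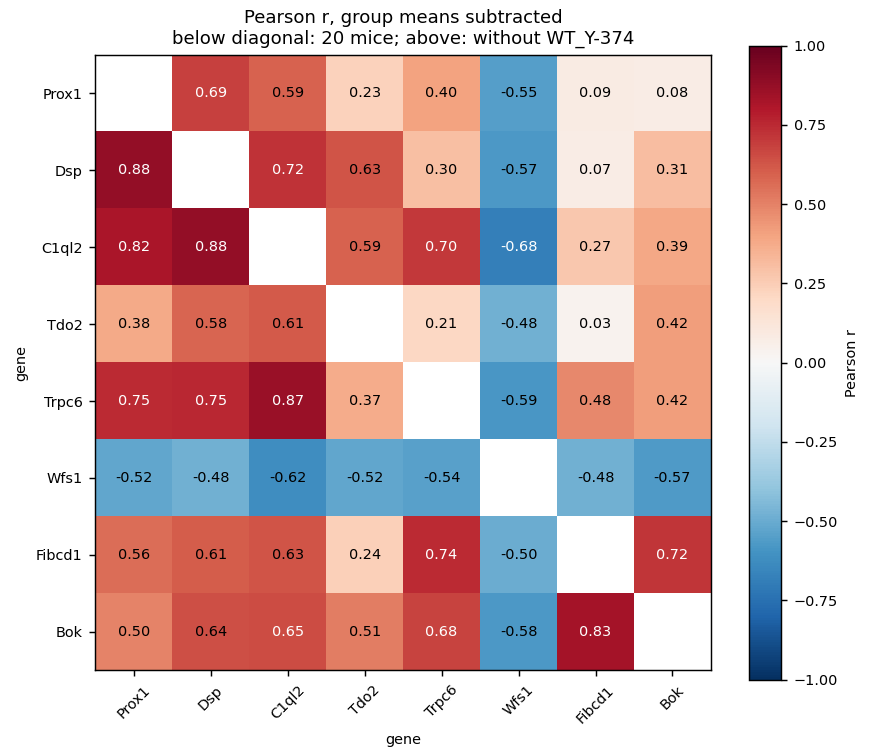
Pearson r between the 8 markers after subtraction of group means, below the diagonal over 20 mice and above it without WT_Y-374. The row and the column of Wfs1 are negative throughout, and the values between dentate gyrus genes are lower above the diagonal than below it except for Dsp with Tdo2, at 0.63 and 0.58.

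The members were set against the wider lists as a description, over the same 20 mice. The median r with 12 other dentate gyrus genes was 0.82 for Prox1, 0.82 for Dsp, 0.82 for C1ql2, 0.70 for Trpc6 and 0.37 for Tdo2, and -0.43 for Wfs1. Without WT_Y-374 these were 0.61, 0.61, 0.62, 0.37, 0.30 and -0.39. The median r with all probe sets kept was between 0.11 and 0.14 for the dentate gyrus genes, and between 0.009 and 0.072 without WT_Y-374. Fibcd1 had its highest median, 0.71, with 8 other CA3 genes, against 0.52 with 7 other CA1 genes and 0.10 with all probe sets kept. Without WT_Y-374 these were 0.60, 0.30 and -0.02. Wfs1 had its lowest median, -0.66, with the CA3 genes. With the 7 other CA1 genes its median was -0.11, with 2 of 7 positive (0.02 and 4 of 7 without WT_Y-374). Its highest medians were with neocortex (0.41), choroid plexus (0.37) and thalamus genes (0.36), against -0.06 with all probe sets kept. The part of such tissue was not tested. All genes of a mouse share its RNA sample and its array, so these values are not independent of each other.

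By the same measure the single genes most like each member, among about 15577 probe sets with 1 symbol that passed the filter, were found. Prox1 was followed by Sema5a (r = 0.94), Cebpb and Arhgap17, Dsp by Lrrtm4 (0.95), Cebpb and Npnt, and C1ql2 by Orai2 (0.95), Limd2 and Stxbp6. Sema5a, Npnt and Stxbp6 were on the list of other dentate gyrus genes. Fibcd1 and Bok shared Olfml2b among their nearest 3 genes, with Pcdh20 (0.92) first for Fibcd1 and Cops9 (0.93) for Bok. For Wfs1 the nearest was Meis2 (0.83), for Tdo2 Magef1 (0.87) and for Trpc6 Ypel5 (0.93). Without WT_Y-374 the same 7 leading genes other than Lrrtm4 had an r of 0.82 or more, and Lrrtm4 with Dsp 0.81. As these genes were picked for the highest r over the same mice, these values are no independent check.

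Over the 5 groups, limma, a linear model with a spread shared across genes, called 0 of the 7 members tested at an adjusted p of 0.05 for any difference, where 1.03% of all probe sets were called. The smallest adjusted p was that of Tdo2 (limma F test, adjusted p = 0.365). Across 6 comparisons no member was called either.

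Age in wild-type mice gave the largest group difference of Tdo2. Between WT_A and WT_Y no member of 7 was called, with 0.594% called of all probe sets. Tdo2 was lower in WT_A by 0.48 ± 0.15 on the log2 scale (SE, limma adjusted p = 0.314, two-sided exact permutation p = 0.0121 with 0.00202 the smallest possible). All 8 aged mice lay below the WT_Y mean, yet the groups overlapped. The other probe sets of Tdo2 were dim, with mean intensities of 24.7 and 10.7 and 0 arrays at 100 or above, so their differences are not given. The mean of all 3 probe sets, of which these dim ones are the greater part, gave -0.33 and passed the test (limma adjusted p = 0.0445). C1ql2 was higher in WT_A by 0.39 ± 0.18 (limma adjusted p = 0.648), but by 0.14 without WT_Y-374. Prox1, Dsp and Trpc6 differed by 0.07, 0.08 and 0.16, and without that mouse by -0.29, -0.47 and -0.04, so that their direction turned on 1 array. Leaving out WT_AU-23 also took Prox1 below 0, to -0.007, and did not turn Dsp or Trpc6. Wfs1, Fibcd1 and Bok differed by 0.07, -0.05 and -0.04, and without WT_Y-374 by 0.12, -0.26 and -0.16. Fibcd1 was above 0 without WT_Y-371 or WT_Y-373, and Bok without WT_Y-371 or WT_AI-21.

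Age in Hsd11b1-/- mice was compared as KO_A against KO_Y, where 0 of 7 members were called and 2.41% of all probe sets. Dsp was lower in KO_A by 0.49 ± 0.36 (limma adjusted p = 0.455, exact permutation p = 0.0857), Prox1 by 0.33 ± 0.27, Tdo2 by 0.31 ± 0.17, Trpc6 by 0.18 ± 0.15 and Wfs1 by 0.25 ± 0.12. Prox1 was at -0.181 without KO_Y-575, and Trpc6 at -0.307 without KO_Y-578. For Wfs1 the 4 KO_A mice lay below the 4 KO_Y mice (exact permutation p = 0.0286, the smallest that 4 against 4 can give, limma adjusted p = 0.240), as did 1.77% of all probe sets. C1ql2 differed by -0.03, Fibcd1 by -0.10 and Bok by 0.05.

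Genotype in young mice, KO_Y against WT_Y, gave 0 of 7 members called and 0.129% of all probe sets. Wfs1 was higher in KO_Y by 0.29 ± 0.12, with no overlap between the groups (exact permutation p = 0.0286, limma adjusted p = 0.9998). Of all probe sets, 1.21% were higher in KO_Y without overlap. This comparison shares the KO_Y mice with that of age in Hsd11b1-/- mice and the WT_Y mice with that of age in wild-type mice. Prox1, Dsp, C1ql2 and Trpc6 were 0.33, 0.30, 0.36 and 0.34 higher in KO_Y, and without WT_Y-374 the differences were -0.03, -0.25, 0.11 and 0.13. Tdo2 was lower by 0.27 ± 0.17, and the difference was -0.118 without WT_Y-369 and -0.14 without KO_Y-578. Fibcd1 and Bok differed by 0.02 and 0.03, and without WT_Y-374 by -0.18 and -0.09. Among the members, Wfs1 alone kept a difference without overlap when WT_Y-374 was left out, at 0.34. With fewer mice such a gap is more frequent by chance, and the share of all probe sets that show it was not computed.

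Genotype in aged mice was compared as KO_A against WT_A. Between them, 0 of 7 members were called (0.0294% of all probe sets), and the differences ran from -0.27 for Dsp (-0.141 without KO_A-222) to 0.13 for Bok (0.08 without WT_AI-21). The 95% interval of the Dsp difference was wide, at -0.93 to 0.39, and that of Wfs1 was narrower, at -0.26 to 0.18. By memory status, WT_AI against WT_AU, 0 of 7 members and 0% of all probe sets were called, and the differences ran from -0.15 for C1ql2 (-0.031 without WT_AU-23) to 0.10 for Tdo2, which lay between 0.014 and 0.229 with 1 mouse left out, the lowest without WT_AI-51 and the highest without WT_AI-21. At an unadjusted p under 0.05 there were 0 of 7 members in either comparison, against 14.8% of all probe sets for genotype and 0.883% for memory status. The same count was 2 of 7 for WT_A against WT_Y (Tdo2 and C1ql2, with 7.1% of all probe sets), 0 for KO_A against KO_Y (20.9%) and 1 for KO_Y against WT_Y (Wfs1, with 3.71%). Trpc6, which is outside the 7, had an unadjusted limma p of 0.0389 for KO_Y against WT_Y in the fit over all probe sets (adjusted p = 0.93). The age effect in Hsd11b1-/- minus that in wild-type mice was largest for Dsp at -0.57 ± 0.48 and was -0.33 ± 0.16 for Wfs1 (limma adjusted p = 0.655 and 0.481), with 0 of 7 members and 0.0471% of all probe sets called, and 0 of 7 and 10.5% at an unadjusted p under 0.05. Without WT_Y-374 these values were -0.02 for Dsp and -0.38 for Wfs1, and that of Prox1 went from -0.40 to -0.04.

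**Figure D5:**
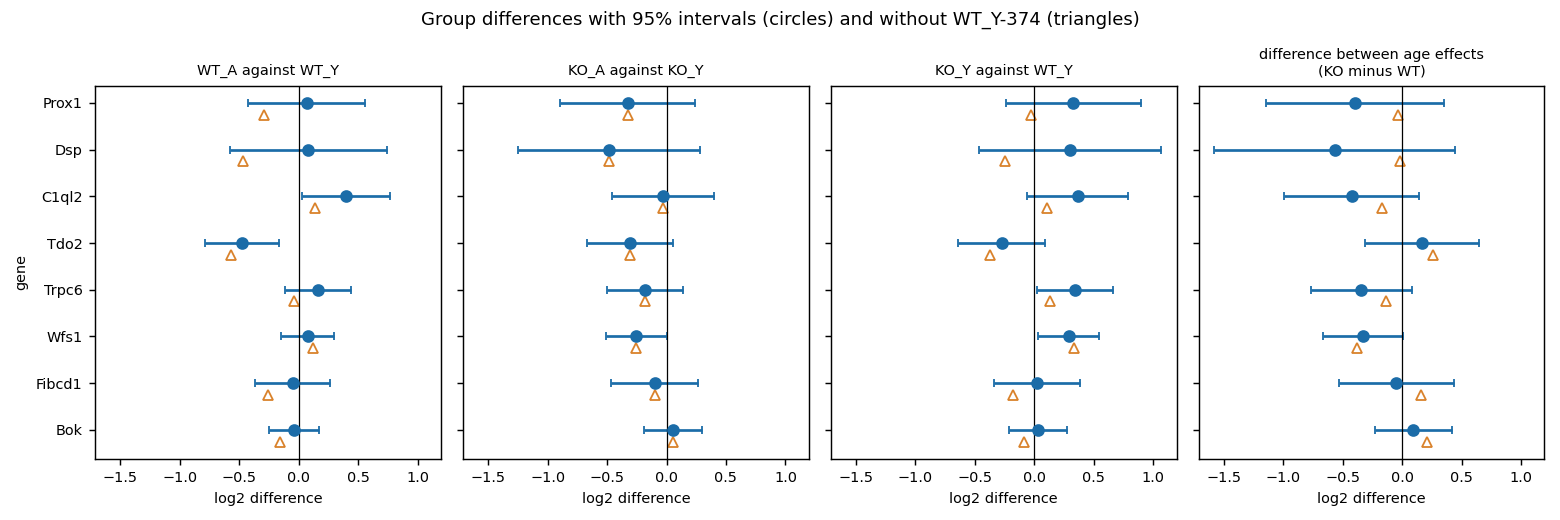
Log2 differences of the 8 markers (rows) in 3 comparisons and for the age effect in Hsd11b1-/- minus that in wild-type mice, with 95% limma intervals (circles and bars) and again without WT_Y-374 (open triangles). For Prox1 and Dsp in WT_A against WT_Y the triangle lies on the other side of 0 from the circle.

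The wider lists gave few calls. No other dentate gyrus (12 tested), CA1 (7), CA3 (8) or CA2 (7) gene was called in any of the 6 comparisons. For WT_A against WT_Y, 8 of the 12 other dentate gyrus genes were above 0 with a median log2 difference of 0.07, and for KO_A against KO_Y 8 were below 0 with a median of -0.06, against medians of 0.07 and -0.32 for the 4 members tested and of -0.01 and 0.02 over all probe sets. Without WT_Y-374 the WT_A against WT_Y median was -0.13 for the other dentate gyrus genes (5 of 12 above 0), -0.38 for the 4 members and -0.03 over all probe sets, so that the direction of both lists turned on 1 array. Sox11, a transcription factor of immature neurones, was lower in KO_A than in KO_Y by 0.46 (limma adjusted p = 0.0252), 1 of 3 genes of its list. It was called in 16 of 20 fits that left out 1 mouse, the exceptions being those without KO_Y-575, KO_Y-578, KO_Y-580 or KO_A-223 (adjusted p up to 0.0877). The subfield and immature neurone genes of next smallest p there were Htr2c at 0.53, Rfx3 at -0.28 and Ccn3 at -0.35 (limma adjusted p = 0.0562, 0.132 and 0.139). For WT_A against WT_Y they were Sox4 at -0.22, Sox11 at -0.31, Pcp4 at -0.33 and Htr2c at -0.33, none of them called (limma adjusted p = 0.203, 0.204, 0.375 and 0.473). Htr2c, a serotonin receptor listed for the ventral hippocampus and abundant in choroid plexus, was lower in KO_Y than in WT_Y by 0.73 (limma adjusted p = 0.0494), 1 of 6 of its list. It was called in only 4 of 20 fits that left out 1 mouse, those without WT_Y-371, WT_AU-26, WT_AI-21 or KO_Y-578, with an adjusted p up to 0.293 (without KO_Y-580). Calb2, Plagl1 and St18 followed at -0.47, -0.40 and -0.21 and were not called. In that comparison all 7 choroid plexus genes were below 0 with a median of -1.54 (-1.05 without WT_Y-374), none of them called, and their part in the difference of Htr2c was not tested.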

How the data were processed

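Total RNA of the hippocampus of each mouse was labelled and hybridised to an Affymetrix mouse genome array. The authors read the chip files with affy and normalised them together by the robust multichip average (R 2.8.0 per the submitters' processing notes). The deposited values are intensities on the linear scale, 1 per probe set, with array medians from 39.4 to 41.3. Equalised arrays hide changes common to all transcripts. The number of arrays limits the precision.

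Values were turned to log2. A signal of 100 or more on 2 or more arrays was asked for, which 16995 probe sets (37.7%) had, and limma 3.58.1 (R 4.3.3) was run on these over the 5 groups, with Benjamini-Hochberg adjustment over all of them; 34945 of all probe sets carry 1 symbol. The fit was tested on simulated data. Named genes were the members, their 3 closest genes, genes of the wider subfield lists that were called or had the 4 smallest p in a comparison of age or of genotype in young mice, and Hsd11b1. Permutation tests used Python 3.11.15 and numpy 2.4.6. Alternatives were another filter, no filter, a pseudocount of 16, median centring, array weights, a trended robust prior, only the groups compared, the mean of a gene's probe sets and leaving out each mouse. The members and the lists were chosen with earlier results of these data known. Labels name separate mice as replicates.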

Additional observations from a re-analysis of the deposited data

Results flagged for a closer look

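In 6 of 40 groups (8 genes in 5 groups) 1 mouse lay farther from the other 3 than Dixon's 95% limit for 4 values allows. Chance gives this in about 1 in 20 groups of independent, normally distributed values. These 40 groups share mice and hold genes that varied together. The share over all probe sets was not computed, so no excess is read from the count. WT_Y-374 was the low mouse for C1ql2 in WT_Y at 7.81, the next being 8.76. KO_Y-578 was the low mouse for Trpc6 in KO_Y at 5.81 (next 6.29) and the high mouse for Wfs1 at 9.86 (next 9.61). In KO_A, KO_A-223 was low for Prox1 at 6.78 (next 7.14) and KO_A-42 was low for Bok at 9.20 (next 9.39). KO_Y-585 was high for Fibcd1 in KO_Y at 8.43, in a group whose other mice lay within 0.02 of each other. For Dsp, Prox1 and Fibcd1 the low value of WT_Y-374 did not pass the limit.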

How the results depend on the processing

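No member was called in any comparison under the other filters, a pseudocount of 16, median centring, array weights, a trended robust prior, only the groups compared, or with any mouse left out. When a gene's probe sets were averaged, 1 of 7 members, Tdo2, was called for WT_A against WT_Y and 1 for any difference among the groups. The background moved more. For KO_A against KO_Y, 410 probe sets were called, 3708 with array weights and 14 with these groups alone, and the cause was not tested. Array weights also turned 5 differences that were not called, to -0.066 for Prox1 and -0.201 for Dsp (WT_A against WT_Y), -0.150 for Fibcd1 and -0.065 for Bok (KO_Y against WT_Y) and 0.063 for Fibcd1 (difference of age effects). Median centring took Trpc6 in KO_A against WT_A to 0.018, and the mean of probe sets took Dsp in WT_AI against WT_AU to 0.002. Of 48 differences of single members, 26 kept their sign whichever mouse was left out. In all, 42 of the 48 moved by over 1.5 times with some mouse left out, 20 of them with the sign kept. For the 22 that turned, none called, the range over the mice left out spanned 0. For WT_A against WT_Y it was -0.291 to 0.317 for Prox1, -0.465 to 0.383 for Dsp, -0.256 to 0.048 for Fibcd1, -0.161 to 0.024 for Bok and -0.042 to 0.265 for Trpc6. For KO_A against KO_Y it was -0.208 to 0.074 for C1ql2 and -0.22 to 0.009 for Fibcd1. For KO_Y against WT_Y it was -0.031 to 0.577 for Prox1, -0.246 to 0.602 for Dsp, -0.181 to 0.123 for Fibcd1 and -0.086 to 0.098 for Bok. For KO_A against WT_A it was -0.132 to 0.025 for Prox1, -0.098 to 0.001 for C1ql2, -0.106 to 0.043 for Wfs1, -0.145 to 0.084 for Fibcd1 and -0.044 to 0.041 for Trpc6. For WT_AI against WT_AU it was -0.135 to 0.144 for Prox1, -0.103 to 0.139 for Dsp, -0.082 to 0.144 for Wfs1, -0.034 to 0.177 for Fibcd1 and -0.133 to 0.047 for Bok. For the contrast of age effects it was -0.168 to 0.156 for Fibcd1.

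With group means not subtracted, 13 of 28 correlations passed the adjusted threshold, against 20. Leaving out each mouse in turn, an alternative chosen after the data were seen, gave 0 to 22. It was 0 without WT_Y-374, 12 without WT_AU-23 and 13 without KO_Y-578. No paired analysis was possible because each mouse number belongs to 1 group only. Signal over background limits Trpc6 and Tdo2, the dimmest of the probe sets used.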
